A study of Mus musculus with 2 samples.

Results

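The replication-dependent histone genes of the mouse were examined for binding of a chimeric Dux protein in C2C12 myoblasts. Members were all genes of the RefSeq table for mm10 (GRCm38) whose symbol begins with H2ac, H2bc, H3c or H4c and a digit, plus *H1f1* to *H1f6*. This gave 65 of 49997 positioned genes, of which 63 are protein-coding and 2, *H2ac14* and *H2ac5-ps*, are pseudogenes. Their peaks were selected on the deposited peak calls themselves, as every peak with its summit inside a member or within 5 kb of either end, which left 24 distinct peaks of 51356. Because position near these genes chose the peaks, and the gene set was proposed with earlier results of these data known, the counts below are descriptions and carry no test. An H2B gene listed as *H4bc24* fell outside the symbol rule, and its nearest summit lay 9377 bp away.

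The study used chromatin immunoprecipitation and sequencing (ChIP-seq), which counts DNA fragments pulled down with a protein. Both libraries came from C2C12, an established line of mouse myoblasts, in a single clone that carries the doxycycline-inducible transgene MMH, and both were made after 18 h with 2 ug/ml doxycycline. MMH is a chimera, with mouse Dux up to the end of its homeodomains followed by the human DUX4 C-terminus, and it is codon-altered throughout. The bound library was precipitated with the DUX4 antisera MO488 and MO489 (1 library), and the control with an antibody labelled HA (1 library), although the series' design text names GFP for the control. As the only replicate of each kind, the libraries give no measure of variation between cultures. Per the file headers, 26253175 of 32659686 antisera fragments and 23412256 of 40115471 control fragments remained after duplicates were removed. The redundant share was 20% in the antisera library and 42% in the control.

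Histones H2A, H2B, H3 and H4 form the core of the nucleosome and linker histone H1 binds the DNA between nucleosomes. The replication-dependent genes supply these proteins during S phase. Their transcripts end in a stem-loop in place of a poly(A) tail, and the genes are short and sit in dense clusters in which H2A and H2B genes are often transcribed away from each other from a shared stretch of promoter. Mouse Dux and human DUX4 are transcription factors of the early embryo that contact DNA through a pair of homeodomains.

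Members at most 100 kb apart were grouped, which gave 5 clusters, numbered along the genome. Cluster 1 held 10 genes on chromosome 3. Clusters 2, 3, 4 and 5 held 18, 5, 30 and 2 genes on chromosome 13. Members had a median span of 490 bp and 60 of 65 spanned less than 1 kb, against a median of 17146 bp for all protein-coding genes. The 300-bp promoter windows of RefSeq (GRCm38.p6), from 250 bases before to 50 bases after the start site, matched 58 members with 59 windows. *H2ac14*, *H2ac5-ps*, *H2bc21*, *H2bc4*, *H3c1*, *H3c7* and *H4c14* were not matched.

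A peak summit fell inside 7 of the 59 histone promoter windows (11.9%, exact binomial interval 4.91 to 22.9%), against 1.15% of all 32851 windows in the table. The 7 are shown here because their summits lie on the printed bases. They run in order of falling fold enrichment, 5 prime to 3 prime on the gene's own strand, and capitals mark the sequence AATCA or its reverse complement TGATT, the arms of the palindrome-like core to which Dux binds.
H2ac19, chr3:96240325-96240624, minus strand: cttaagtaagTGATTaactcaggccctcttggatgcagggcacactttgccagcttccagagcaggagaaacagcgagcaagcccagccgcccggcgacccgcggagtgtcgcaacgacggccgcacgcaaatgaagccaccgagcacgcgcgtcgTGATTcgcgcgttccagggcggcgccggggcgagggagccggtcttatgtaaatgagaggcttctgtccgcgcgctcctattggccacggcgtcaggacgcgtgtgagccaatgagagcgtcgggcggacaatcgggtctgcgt
H1f3, chr13:23554782-23555081, plus strand: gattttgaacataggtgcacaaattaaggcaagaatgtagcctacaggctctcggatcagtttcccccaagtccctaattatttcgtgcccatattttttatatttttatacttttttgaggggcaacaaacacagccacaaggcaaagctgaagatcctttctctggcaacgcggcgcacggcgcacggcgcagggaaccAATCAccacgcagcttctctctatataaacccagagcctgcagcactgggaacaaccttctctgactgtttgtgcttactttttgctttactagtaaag
H3c8, chr13:23535168-23535467, plus strand: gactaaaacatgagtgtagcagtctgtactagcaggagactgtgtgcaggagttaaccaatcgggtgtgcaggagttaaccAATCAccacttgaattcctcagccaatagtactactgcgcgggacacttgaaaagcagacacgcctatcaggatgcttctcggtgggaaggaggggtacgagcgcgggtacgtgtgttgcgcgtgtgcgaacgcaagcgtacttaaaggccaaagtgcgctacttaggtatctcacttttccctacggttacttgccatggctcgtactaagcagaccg
H3c6, chr13:23562336-23562635, minus strand: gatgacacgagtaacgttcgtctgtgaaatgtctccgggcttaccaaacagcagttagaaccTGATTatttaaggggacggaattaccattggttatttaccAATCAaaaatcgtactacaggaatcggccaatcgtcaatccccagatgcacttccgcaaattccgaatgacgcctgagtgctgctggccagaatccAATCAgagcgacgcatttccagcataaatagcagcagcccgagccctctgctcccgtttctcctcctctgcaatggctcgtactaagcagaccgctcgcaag
H2bc9, chr13:23543395-23543694, minus strand: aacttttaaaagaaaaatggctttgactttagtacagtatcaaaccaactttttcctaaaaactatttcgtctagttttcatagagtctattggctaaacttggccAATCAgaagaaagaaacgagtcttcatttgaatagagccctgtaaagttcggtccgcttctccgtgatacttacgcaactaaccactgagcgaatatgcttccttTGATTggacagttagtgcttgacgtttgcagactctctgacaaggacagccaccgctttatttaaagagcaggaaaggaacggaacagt
H3c3, chr13:23745472-23745771, minus strand: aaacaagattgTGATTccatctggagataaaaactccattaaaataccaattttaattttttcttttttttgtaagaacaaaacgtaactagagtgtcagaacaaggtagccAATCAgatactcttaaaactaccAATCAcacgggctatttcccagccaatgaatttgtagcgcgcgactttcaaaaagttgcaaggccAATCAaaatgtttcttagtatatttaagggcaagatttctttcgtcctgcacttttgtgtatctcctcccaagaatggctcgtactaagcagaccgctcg
H2ac21, chr3:96219635-96219934, plus strand: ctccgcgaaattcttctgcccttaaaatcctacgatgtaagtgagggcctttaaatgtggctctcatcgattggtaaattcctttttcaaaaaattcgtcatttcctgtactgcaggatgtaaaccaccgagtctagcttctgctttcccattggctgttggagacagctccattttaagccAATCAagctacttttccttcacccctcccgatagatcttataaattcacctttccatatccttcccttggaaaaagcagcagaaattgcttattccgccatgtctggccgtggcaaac

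The strongest of these, the *H2ac19* promoter on chromosome 3, was the sole histone window with a near match to the whole Dux core, searched on both strands as TGATT and AATCA with 1 free base between them. Counting positions from 1 at the first T of the core, its match differed by a single substitution, A8C, and its centre lay 5 bp from the summit. The peak had 159 antisera fragments over a local background of 4.01 fragments, a 31.9-fold enrichment (95% Poisson interval 27.2 to 37.2), at 230 bp upstream of the *H2ac19* start site. No histone window held the core without a mismatch (0 of 59, interval 0 to 6.06%), as against 0.0335% of all windows. With at most 1 mismatch, a search added after the sequences were seen, it was found in 1 of 59 histone windows (1.69%) and in 0.734% of all windows. Among all windows with a summit of 20-fold or more, 29 of 51 (56.9%) held the core with at most 1 mismatch, against 52 of 328 (15.9%) with a weaker summit and 0.493% of those with no summit.

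In the other 6 windows the best match to the core had 2 mismatches (*H3c3*) or 3 (*H1f3*, *H3c8*, *H3c6*, *H2bc9* and *H2ac21*), and none of these peaks exceeded 12.8-fold. All 6 held at least 1 AATCA sequence inside a longer CCAATCA box, an element that contains both CCAAT and AATCA. From the middle of the nearest AATCA or TGATT to the summit there were 5 bp at *H1f3*, 10 bp at *H3c8*, 15 bp at *H2ac21*, 17 bp at *H3c3*, 24 bp at *H3c6* and 50 bp at *H2bc9*. Summit positions carry the error of fragment pileups, which was not measured here.

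These short elements were found in a larger share of histone windows than of all windows. Of the 59 histone windows, 52 held no summit, and the motif counts below were not split by summit. CCAAT, the box bound by the factor NF-Y, was found on either strand in 51 of 59 histone windows (86.4%, interval 75.0 to 94.0%) and in 37.4% of all windows. CCAATCA was found in 35 of 59 (59.3%) and in 7.82% of all windows. AATCA occurred in 46 of 59 (78.0%) and in 37.0% of all windows, and 48 of the 76 occurrences in histone windows (63.2%) lay within CCAATCA, against 17.2% of occurrences in all windows. TATAAA, the core of the TATA box, was found in 34 of 59 (57.6%) and in 13.6% of all windows. ATTTGCAT, the octamer known from H2B promoters, was found in 13 of 59 (22.0%) and in 1.74% of all windows, and the 13 were 7 H2B and 6 H2A windows. Families differed in these counts. CCAAT was present in all 6 H1, 17 H2A, 15 H2B and 10 H3 windows but in 3 of 11 H4 windows, and CCAATCA in no H4 window. Of the 7 windows with a summit, 3 belonged to H3 genes, 2 to H2A genes, 1 to an H2B gene, 1 to an H1 gene and 0 to H4 genes. These are letters found in fixed windows, and neighbouring divergent genes share bases of them.

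**Figure D1:**
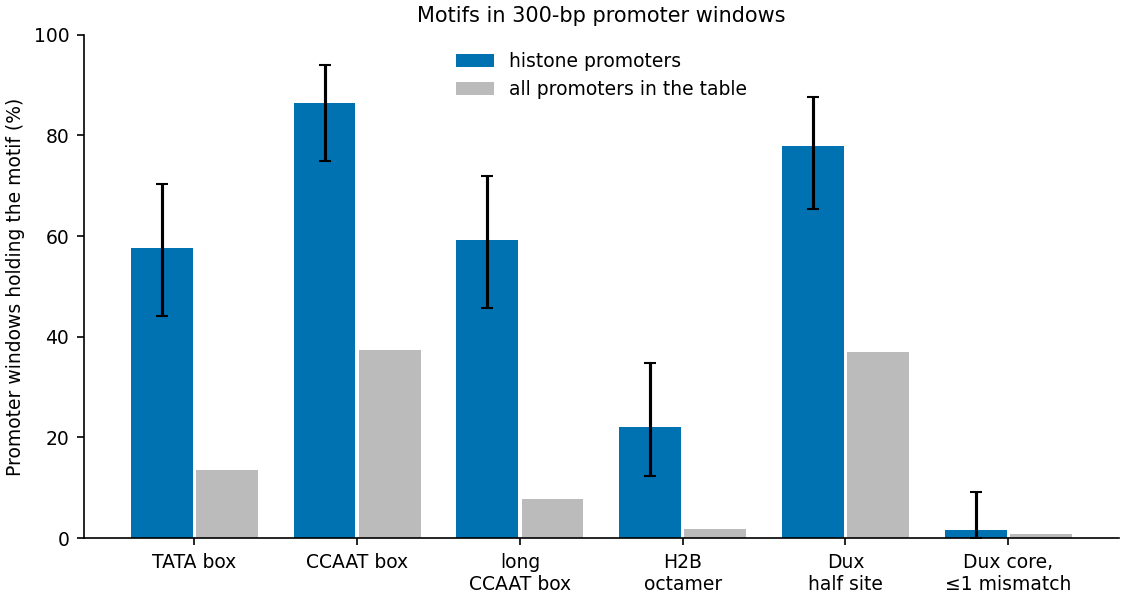
Percentage of 300-bp promoter windows that hold each motif on either strand, for 59 histone windows (blue, error bars are exact binomial 95% intervals) and all 32851 windows of the table (grey). The CCAAT box reaches 86.4% of histone windows and 37.4% of all windows, while the Dux core with at most 1 mismatch stays at 1.69% and 0.734%.

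Across the whole set, 44 of the 65 histone genes had a summit inside or within 5 kb (67.7%, exact interval 54.9 to 78.8%), against 43.2% of all 21900 protein-coding genes and 33.4% of all positioned genes. Neighbours share peaks, so the interval covers counting error only and treats linked genes as separate. At a distance of 1 kb the shares were 24 of 65 (36.9%) for histone genes and 35.0% for protein-coding genes. These shares include summits inside the gene, and median spans were 490 bp for histone genes and 17146 bp for protein-coding genes. Far more DNA was therefore searched per protein-coding gene, at 1 kb as at 5 kb, and the shares are not matched for length. At 20-fold or more, 16 of 65 histone genes had a summit within 5 kb (24.6%), against 11.8% of protein-coding genes, and these 16 shared 6 peaks. Of the 24 peaks, 16 had at least 2 members in reach. By family, 14 of 19 H2A genes, 12 of 16 H2B genes, 9 of 12 H3 genes, 6 of 12 H4 genes and 3 of 6 H1 genes had a summit. The exact intervals of all 5 families overlapped, from 11.8 to 88.2% for H1 and 21.1 to 78.9% for H4 to 42.8 to 94.5% for H3.

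**Figure D2:**
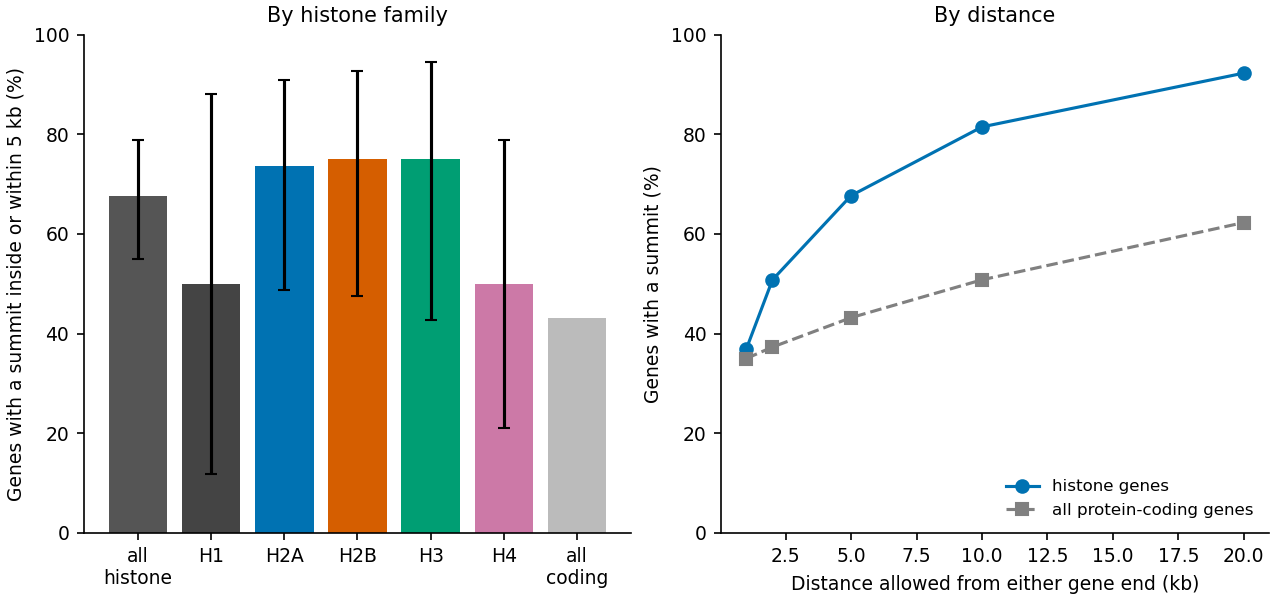
Left, percentage of histone genes with a summit inside or within 5 kb, for all members and by family (error bars are exact binomial 95% intervals), beside all protein-coding genes (43.2%). Right, the same percentage for histone genes (blue) and protein-coding genes (grey) by the distance allowed, from 36.9% and 35.0% at 1 kb to 92.3% and 62.3% at 20 kb. Summits inside genes count, and protein-coding genes have longer spans, so the length searched per gene differs.

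Per length of DNA, the 5 kb windows around histone genes covered 337 kb and held 71.1 peaks per Mb (95% Poisson interval 45.6 to 106). Windows drawn by the same rule around all protein-coding genes held 19.9 per Mb, and the whole list 20 per Mb. The protein-coding windows covered 1182108 kb with long gene bodies, whereas the histone windows are mostly flank of short genes. The densities therefore differ in position relative to genes as well as in gene set, and these were not separated. The peaks themselves were of ordinary height. Median fold enrichment was 8.78 (range 3.99 to 74.8) at histone genes and 8.02 over the whole list, and median pileup was 43 and 41 fragments. Of the 24, 6 reached 20-fold (25.0%, against 13.7% of the list) and 6 stayed under 5-fold (25.0%, against 16.5%). The local background recovered from the fold was 4.01 fragments, the most common value, in 23 of the 24, as in 78.0% of the list. It exceeded this only at the peak near *H2bc21* (4.49). A value shared by so many peaks acts as a floor and is not a separate reading of the control at each place. How the authors treated reads that map to more than 1 place is not stated in the labels or headers. Coding sequences of many histone genes are near-identical copies, so the origin of fragments over them is uncertain. Of the 24 summits, 23 lay outside every member's annotated span, but a peak can extend from its summit into a gene. The peaks at *H2ac21*, *H2ac19*, *H2bc9*, *H1f3*, *H3c6* and *H2ac7* did so. Summit position alone therefore does not settle where their fragments came from.

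The cluster on chromosome 3 carried the highest of the 24 peaks and had a peak in reach of 9 of its 10 genes. With 5 kb added to each side it held 133 peaks per Mb (interval 57.3 to 261), against 22.4 per Mb for the chromosome. Its highest peak, at 96258969 to 96259780, had 374 antisera fragments over a background of 4.01, a 74.8-fold enrichment (interval 67.4 to 82.8) that exceeded 99.6% of the list. The summit lay 3550 bp outside *H4c14*, the only H4 gene of the cluster, and 1634 bp from the long noncoding RNA *Gm20627*. A weaker peak with 36 fragments (7.38-fold, interval 5.23 to 10.1) lay closer to the same gene, at 555 bp.

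Near *H2bc21* a peak of 204 fragments over 4.49 gave 37.4-fold enrichment (interval 32.4 to 42.8), at 4294 bp from the gene and out of reach of the other members. Between the inverted copies *H2ac19* and *H2ac18*, which encode the same type of H2A, each copy had its own upstream peak. The copies belong to an inverted duplication, so reads may be shared between them and the share of each is uncertain. The *H2ac19* peak described above reached 31.9-fold, whereas the *H2ac18* peak, 865 bp upstream of that gene's start, had 55 fragments and 11.2-fold enrichment (interval 8.46 to 14.5). These intervals do not overlap, though they cover counting error alone. *H3c15* lay 1477 bp from the stronger of these summits and *H3c14* 2053 bp from the weaker. At *H2ac21* a peak of 21 fragments (4.39-fold) lay 51 bp upstream of the start site, and at *H2bc18* a peak of 20 fragments (4.19-fold) lay 4510 bp from the gene. *H3c13* had no summit within 5 kb.

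**Figure D3:**
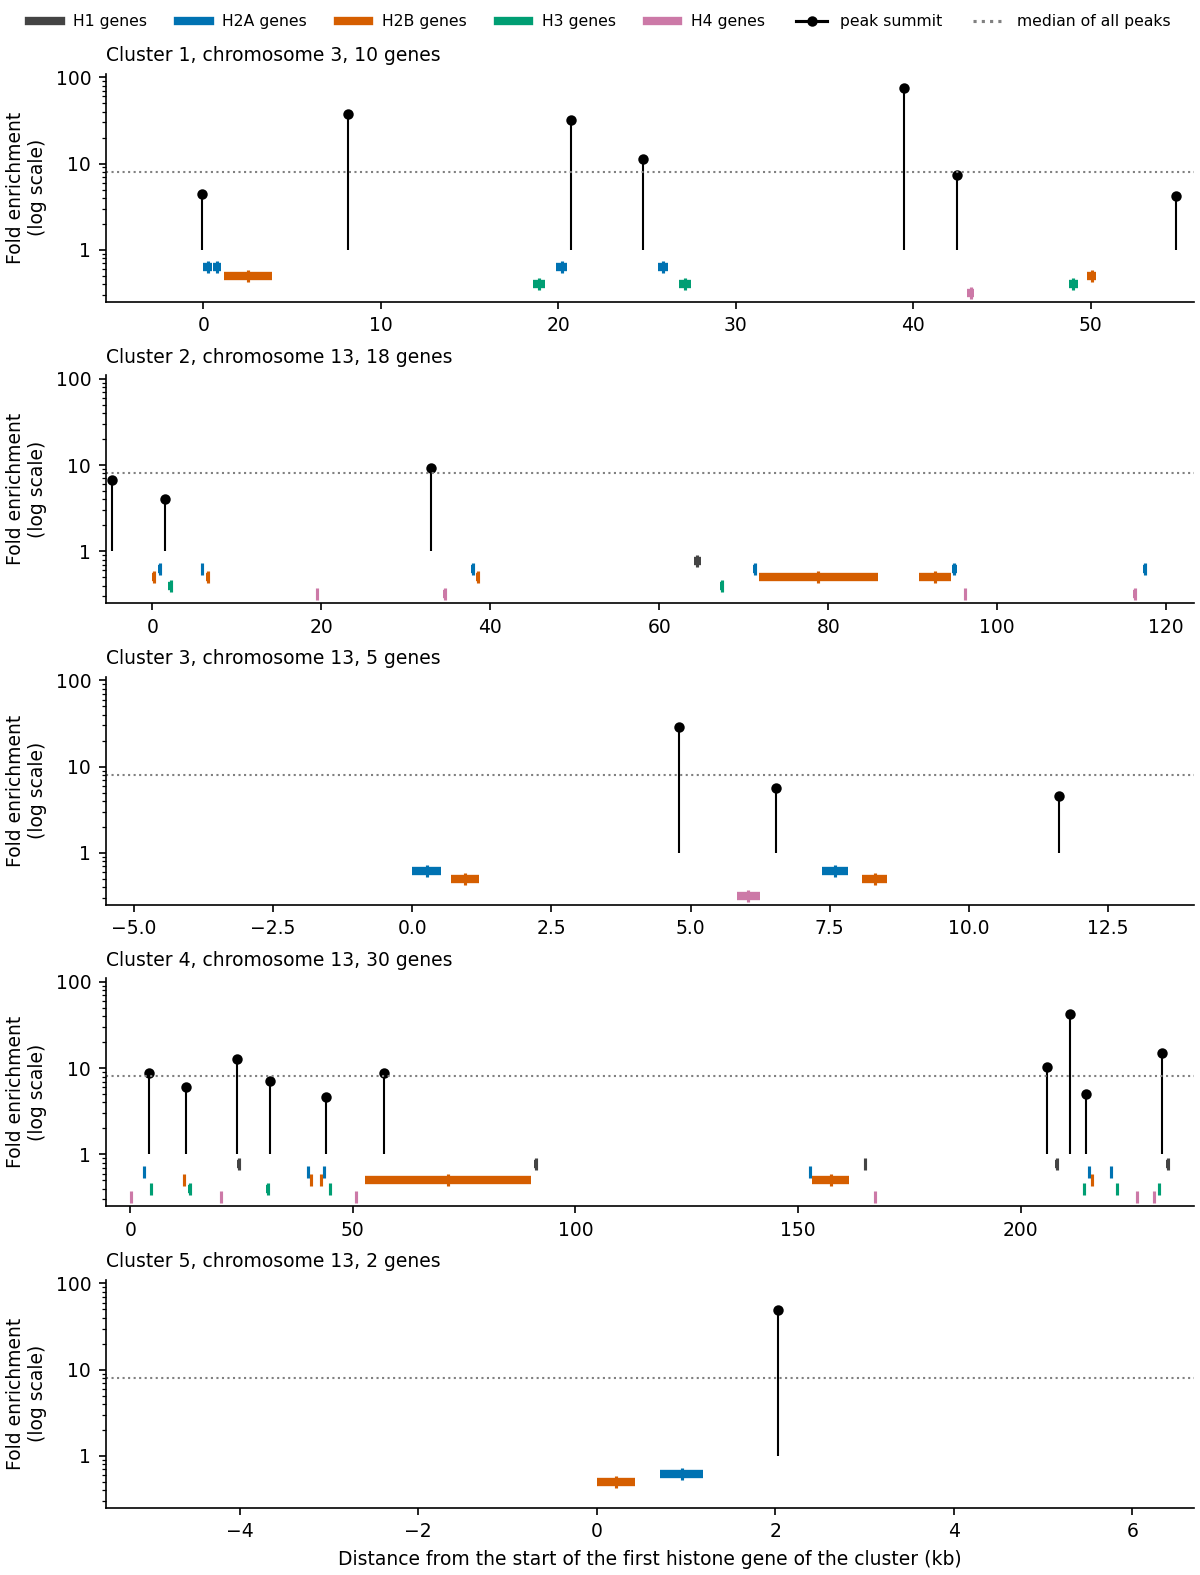
Fold enrichment over local background (vertical axis, log scale) of each peak within 5 kb of a histone gene (black stems), against distance from the start of the first histone gene of the cluster in kb, with histone genes drawn below and coloured by family. The dotted line is the median of all peaks, 8.02. Among the peaks drawn, cluster 1 reaches 74.8-fold and cluster 2 stays at or under 9.18-fold. A 16-fold peak of cluster 2, 5406 bp from *H4c11*, is not drawn. The right-hand parts of cluster 2 and the middle of cluster 4 hold no peak within 5 kb of a gene.

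Cluster 2 is the first on chromosome 13. Of its 18 members, 7 had a summit within 5 kb, and those 7 shared 3 peaks, none above 9.18-fold. The strongest, with 45 fragments (interval of fold 6.75 to 12.2), lay 1395 bp from the H4 gene *H4c12*. A peak of 19 fragments and 3.99-fold enrichment, the weakest of the 24, lay between *H2ac13* and *H3c10*, 436 bp upstream of the *H3c10* start. The third, of 33 fragments (6.78-fold), lay 4807 bp outside *H2bc13* and 90 bp from the transfer RNA gene *n-TMcat7*. No summit was in reach of the remaining 11, which include the linker histone gene *H1f5*, the H3 gene *H3c11*, the H2A genes *H2ac22*, *H2ac23* and *H2ac24*, the H2B genes *H2bc15*, *H2bc22* and *H2bc23*, and the H4 genes *H4c11*, *H4c17* and *H4c18*. For *H4c11* this turned on the distance used, since a peak of 79 fragments and 16-fold enrichment lay 5406 bp away.

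Cluster 3 is a group of 5 genes within 8.54 kb, and all 5 had a summit in reach. A peak of 143 fragments (28.7-fold, interval 24.2 to 33.8) was within 5 kb of all of them, 1050 bp downstream of the H4 gene *H4c9* and between it and *H2bc12*. Upstream of *H4c9*, at 298 bp from its start site, a second peak had 27 fragments (5.59-fold, interval 3.75 to 8.04). The third, of 22 fragments (4.59-fold), lay 3084 bp beyond *H2bc11*. The peak behind the 3 prime end of *H4c9* was therefore higher than the one on its promoter side by more than counting error.

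Cluster 4, the largest, had 10 peaks in reach of 21 of its 30 genes. With 5 kb on each side its density was 41.1 peaks per Mb (interval 19.7 to 75.6), against 21.3 for chromosome 13. The highest, at 23741738 to 23742767, had 209 fragments and 41.9-fold enrichment (interval 36.4 to 47.9). It lay in the space between the linker histone gene *H1f2* and *H3c3*, 2593 bp and 2918 bp away, with *H2ac5-ps* and *H2bc3* also in reach. *H1f2* had a second peak, of 50 fragments (10.2-fold), 1909 bp upstream of its start, and *H3c3* had one of 24 fragments (4.99-fold) 153 bp upstream. A peak of 74 fragments (15.0-fold, interval 11.8 to 18.7) lay 352 bp from *H3c1* and 930 bp upstream of *H1f1*, in the space between these genes.

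The other 6 peaks of cluster 4 lay in its proximal part, and none exceeded 12.8-fold. The linker histone gene *H1f3* had 63 fragments and 12.8-fold enrichment (interval 9.86 to 16.3) at 52 bp upstream. *H3c8* had 43 fragments (8.78-fold) at 177 bp, *H3c6* had 35 (7.18-fold) at 74 bp and *H2bc9* had 29 (5.98-fold) at 92 bp, all upstream of the start. A peak of 22 fragments (4.59-fold) lay 137 bp past the end of *H2ac7* and 711 bp from *H3c4*. The one summit inside a member, with 43 fragments (8.78-fold), fell in the 37455-bp span annotated for *H2bc6*, 2151 bp upstream of the nearer of that gene's start sites in the promoter table. *H4c4*, *H1f4*, *H2ac6*, *H2bc4*, *H1f6*, *H4c3*, *H2ac4*, *H3c2* and *H4c2* had no summit in reach, among them *H1f6*, which encodes the testis linker histone.

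Cluster 5 consists of *H2bc1* and *H2ac1*, which encode the H2B and H2A forms TH2B and TH2A known from testis and oocytes. A single peak at 23935431 to 23936061 lay 841 bp past the end of *H2ac1* and 1598 bp from *H2bc1*. It had 247 antisera fragments over a background of 4.01, a 49.5-fold enrichment (interval 43.5 to 56.0), the second highest of the 24 and above 98.2% of the list. Both promoters lay outside this peak, and its summit fell within the noncoding RNA gene *Gm33516*.

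Summits close to start sites had on the whole lower enrichment than those farther away. Of 24, 9 lay within 500 bp of a member's start site, all 9 on its upstream side, with a median fold enrichment of 5.98 (range 3.99 to 31.9). The other 15 had a median of 10.2 (range 4.19 to 74.8). Of the 6 peaks at 20-fold or more, 1 (*H2ac19*) was within 500 bp of a start site and 2 (*H2ac19* and *H2ac1*) were within 1 kb of a gene. Start sites of *H2bc21*, *H3c1*, *H3c7*, *H4c14* and the other unmatched members were not used in this count. The ranges overlap, and this split was made after the values were seen, so it is a description without a test. Just inside the 5 kb limit lay the peaks at 4807 bp (*H2bc13*, 6.78-fold), 4510 bp (*H2bc18*, 4.19-fold) and 4294 bp (*H2bc21*, 37.4-fold). Just outside lay those at 5406 bp (*H4c11*, 16-fold), 5944 bp (*H4c8*, 6.78-fold) and 6826 bp (*H2bc11*, 4.38-fold).

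**Figure D4:**
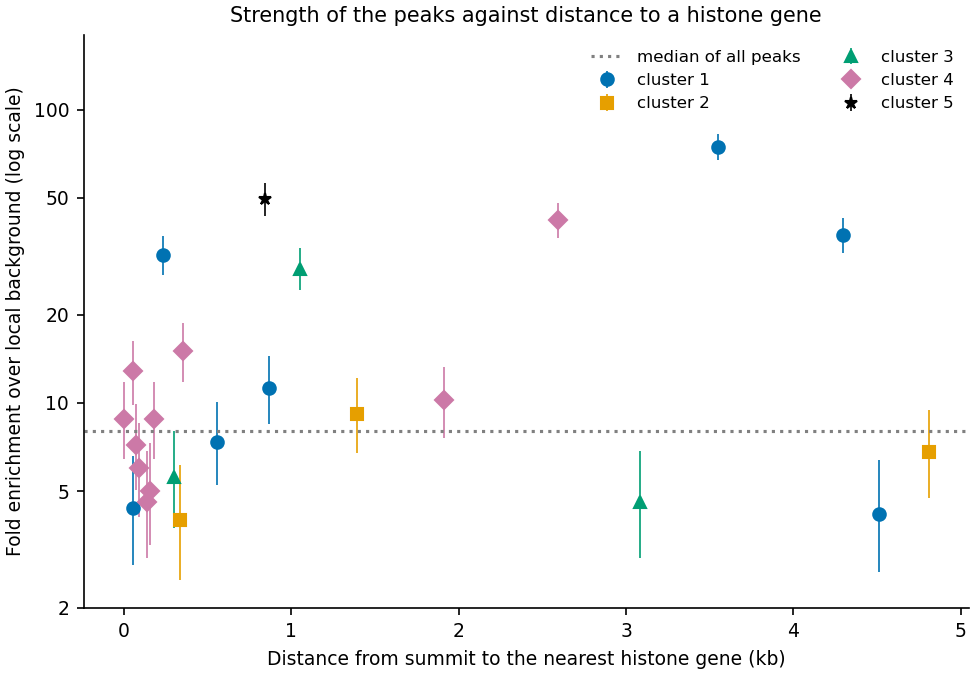
Fold enrichment over local background (log scale) of the 24 peaks against the distance from summit to the nearest histone gene in kb, marked by cluster, with 95% Poisson intervals of the pileup at a fixed background. Points within 0.5 kb run from 3.99- to 31.9-fold around the list median of 8.02 (dotted), and 4 of the 6 peaks at 20-fold or more lie beyond 1 kb.

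The DNA between the chromosome 13 clusters was counted in the same way, from the last gene of one cluster to the first of the next. These stretches therefore overlap the 5 kb flanks of the clusters. The peak 3084 bp beyond *H2bc11* was counted both in cluster 3 and between clusters 3 and 4. Between clusters 2 and 3, a stretch of 202 kb with no member gene held 11 peaks, or 54.6 per Mb (interval 27.2 to 97.6). It does hold *H4bc24*, the H2B gene left out by the symbol rule. This stretch is rich in transfer RNA genes, with 31, and 6 of its 11 summits lay within 1 kb of one. The 1487 kb between clusters 3 and 4 held 29 peaks (19.5 per Mb, interval 13.1 to 28.0). It has 46 transfer RNA genes, and 7 of its 29 summits lay within 1 kb of one. The 169 kb between clusters 4 and 5 held 4 peaks (23.6 per Mb, interval 6.44 to 60.5) and 0 transfer RNA genes. How much of each stretch lies within 1 kb of such a gene was not counted, so a link to them was not tested. The intervals of these 3 stretches overlap each other, and no difference between them was tested. The interval of the 202 kb stretch also overlaps those of all 4 clusters on chromosome 13, which had 47.0 (cluster 2), 162 (cluster 3), 41.1 (cluster 4) and 89.4 (cluster 5) peaks per Mb with 5 kb on each side. These densities count every summit in the span, also those over 5 kb from a member. In cluster 2 the span held 6 summits, and 3 of them were in reach of a member. In cluster 1, on chromosome 3, it held 8, and 7 of them were in reach. The intervals of clusters 2, 4 and 5 also include the 21.3 per Mb of the chromosome, and those of clusters 1 and 3 do not include the value of theirs.

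**Figure D5:**
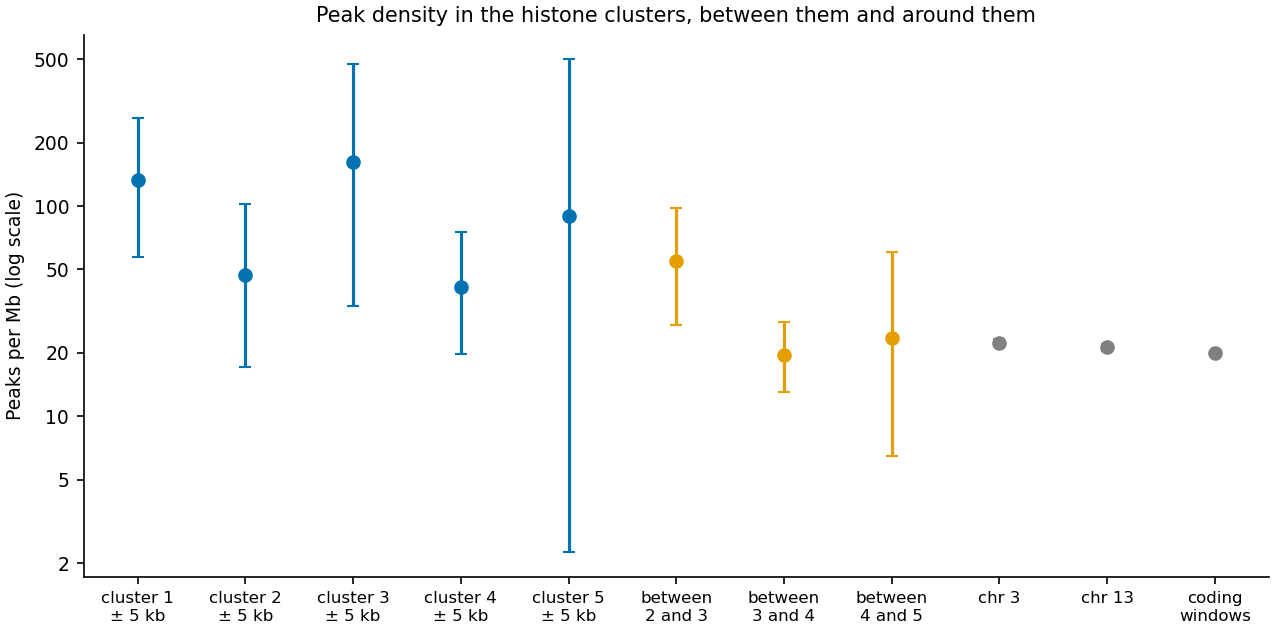
Peaks per Mb (log scale) with 95% Poisson intervals in the 5 histone clusters with 5 kb on each side (blue), in the stretches between the chromosome 13 clusters (orange), and over chromosomes 3 and 13 and the 5 kb windows of all protein-coding genes (grey). Clusters 1 and 4 reach 133 and 41.1 per Mb, the stretch between clusters 2 and 3 reaches 54.6, and the grey points lie at 22.4, 21.3 and 19.9. Every summit in a span counts, also those over 5 kb from a member, and the orange stretches overlap the 5 kb flanks.

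Genes that supply or handle histones were examined in 3 lists against the same 43.2% of protein-coding genes. Genes for transcription and processing of replication-dependent histone mRNA had a summit inside or within 5 kb in 9 of 19 cases (47.4%, exact interval 24.4 to 71.1%). The strongest were *Coil*, which encodes the Cajal body scaffold coilin, with 113 fragments and 22.7-fold enrichment at 4766 bp, and *Lsm1*, of RNA decay, with 65 fragments and 13.2-fold at 912 bp. *Slbp*, which binds the histone stem-loop, and *Npat*, the coactivator of these genes, had none. Histone chaperones had a summit in 10 of 14 (71.4%, interval 41.9 to 91.6%). *Ubn1*, of the HIRA complex, had 322 fragments and 64.3-fold enrichment inside the gene, *Supt16*, of the FACT complex, had 164 and 32.9-fold inside the gene, *Hira* had 115 and 17.6-fold at 3014 bp, over a background of 5.61, and *Atrx* had 64 and 13-fold inside the gene. Genes listed as replication-independent histones had a summit in 3 of 15 (20%, interval 4.33 to 48.1%), namely *H3f3a*, *H3f3b* and *H2ax*, with 5.98- to 8.78-fold enrichment. That list also holds *H4f16* and *H2bu2*, histone genes outside the symbol rule. Neither had a summit in reach, and whether they belong to this class was not checked. The intervals of all 3 lists include the share of protein-coding genes. Summits inside genes count, and gene spans differed widely within and between the lists. The shares are therefore not matched for length.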

How the data were processed

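Per the submitters' processing notes, reads were aligned with BWA to mm10 and peaks were called with MACS2. Per the file headers, the authors ran MACS 2.1.0.20151222 on paired-end fragments of 1 antisera library against 1 control library, keeping peaks under a q-value of 0.01 and allowing 1 fragment for any one position. The deposited pileup is a signal, the antisera fragments over the summit. The authors' fold enrichment is deposited as a ratio, pileup plus 1 over local background plus 1, from which the background was recovered. The deposited −log10 p and −log10 q-value are the authors' and were used only to describe and select peaks within this list.

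Genes and 300-bp promoter sequences came from RefSeq for GRCm38.p6. Distances run from the summit to the gene span, and start sites from the promoter windows. Peaks and genes were counted with Python 3.11.15 and pandas 2.3.3, and intervals were computed with scipy 1.17.1 at 95%. Poisson intervals of fold hold the background fixed. Placement and motif searches were checked on simulated data. The members and lists were chosen with earlier results of these data known. Every peak is given with its nearest member, and at most 6 genes of the 3 further lists are named by strength. Beside these, *Slbp*, *Npat*, *H4f16*, *H2bu2* and the 3 histone genes with a summit were named after their values were seen. *H1f9* of these lists found no match. The label C2C12 could not be checked against marker genes, since the data hold no expression. Fragments from PCR are not independent molecules, so intervals cover counting error only.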

Additional observations from a re-analysis of the deposited data

How the results depend on the processing

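No paired analysis was possible because each group has 1 library and no test was made. For the 4 summary values (44 genes, 67.7% of genes, 24 distinct peaks and a median fold enrichment of 8.78), 40 recomputed values came from 10 alternatives, and 32 stayed within 1.5 times the count or within the interval of the share or median. The rest are these. Within 1 kb the counts were 24 genes and 15 distinct peaks, and the share was 36.9%. The share was 50.8% within 2 kb, 81.5% within 10 kb and 92.3% within 20 kb. It was 49.2% with a −log10 q of at least 10 and 49.2% with a fold enrichment of at least 5, and in these settings 32 genes and 18 peaks were left. Median fold enrichment ranged from 7.38 to 10.7 over the 10 alternatives. Counting any base of a peak, or dropping peaks whose local background was at least 10 fragments, gave 44 genes and 24 peaks as before, and protein-coding members alone gave 42 genes and the share 66.7%. Depth limits the weak peaks most: a pileup of 19 fragments has a 95% Poisson interval of 11.4 to 29.7.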

Other observations

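The highest peaks in the stretches between the chromosome 13 clusters reached values like those of the clusters themselves. Between clusters 2 and 3 the highest had 304 antisera fragments and 60.8-fold enrichment, at 21947838 to 21948454 on chromosome 13, inside the zinc-finger gene *Zfp184*. Between clusters 3 and 4 the highest had 371 fragments and also 60.8-fold enrichment, at 23412421 to 23413004, 178 bp from the transfer RNA gene *n-TAagc7* and 5598 bp from *Abt1*. Between clusters 4 and 5 it had 139 fragments and 27.9-fold enrichment, inside *Slc17a1*, which encodes a phosphate transporter.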
